A study of Mus musculus with 8 samples.

Results

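The genes described here move iron into, through and out of a mammalian cell. They are 10 named genes, *Tfrc*, *Steap3*, *Slc11a2*, *Slc39a14*, *Fth1*, *Ftl1*, *Ncoa4*, *Slc40a1*, *Aco1* and *Ireb2*, chosen by name with earlier results of these data known. All 10 were found among the 18533 gene symbols of the RNA-Seq tables. The cells were mouse aortic smooth muscle cells (MASMCs), cultured from the aortas of male WT mice and *Hint1*-/- mice aged 4 to 6 weeks. All cells, WT included, received PDGF-BB, a growth factor that drives smooth muscle cells out of their contractile state, at 20 ng/mL for 24 h. There were 4 samples per genotype, and no sample without PDGF-BB was analysed here. The *Hint1*-/- mice came from another laboratory, and the sources used here do not say which part of the gene is deleted. The paper states that littermates were compared, without saying so for these samples in particular. The labels and methods do not state whether the samples came from separate mice or cultures, so p-values measure the spread between these samples, which may be technical.

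Cells take up iron bound to transferrin through the transferrin receptor, reduce it in the endosome and pass it to the cytosol through a divalent metal transporter, while a second carrier brings in iron that is not bound to transferrin. Iron that is not used is stored inside ferritin, a shell of heavy and light chains, and ferroportin is the known exporter of iron from mammalian cells. The 2 iron regulatory proteins set the balance after transcription: when iron is scarce they bind iron-responsive elements, short hairpins in the untranslated regions (UTRs) of mRNAs. At a hairpin in the 5′ UTR they block translation, and at hairpins in the 3′ UTR of the transferrin receptor mRNA they protect the mRNA from decay. RNA levels therefore report on part of this system only, and neither protein nor iron was measured in these files.

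The hairpin letters are shown for the genes in which a search found them, with the UTR in which they lie. Each is a stretch of 29 bases from the GENCODE M21 transcripts on GRCm38, printed 5′ to 3′ on the strand of the gene, with the loop of the hairpin in capitals. The Fth1 site lies in the 5′ UTR at chr19:9982732-9982760, the Ftl1 site in the 5′ UTR at chr7:45459779-45459807 (minus strand), and the Slc40a1 site in the 5′ UTR at chr1:45925465-45925493 (minus strand). The 4 Tfrc sites found lie in the 3′ UTR at chr16:32631219-32631247, chr16:32631598-32631626, chr16:32631663-32631691 and chr16:32631710-32631738.
Fth1 5′ UTR: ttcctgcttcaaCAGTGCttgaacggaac
Ftl1 5′ UTR: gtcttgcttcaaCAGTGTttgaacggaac
Slc40a1 5′ UTR: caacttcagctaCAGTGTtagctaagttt
Tfrc 3′ UTR, site 1: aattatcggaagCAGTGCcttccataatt
Tfrc 3′ UTR, site 2: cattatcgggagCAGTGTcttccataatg
Tfrc 3′ UTR, site 3: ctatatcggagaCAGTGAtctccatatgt
Tfrc 3′ UTR, site 4: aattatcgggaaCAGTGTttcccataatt

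The search, on the transcript strand only, asked for a bulged C, a stem of 5 base pairs (G with T allowed) and between its arms a loop of CAGTG plus a last base other than G. Of 21877 protein-coding genes, 23 (0.105%) held these letters in a 5′ UTR and 100 (0.457%) in a 3′ UTR. The Fth1 and Ftl1 hairpins share the stem letters beside the loop. A match describes letters in an annotated UTR and does not show that a protein binds there. The letters were not found in the annotated UTRs of the other 6 genes under this pattern. That does not show that an element is absent: some *Slc11a2* mRNAs carry one, as given below, and the pattern did not match it.

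Total estimated counts ran from 20778077 to 20888041 per sample, and 13535 genes had enough counts to be tested. *Hint1* (chr11:54866383-54870501) had 2272, 2336, 2364 and 2301 estimated counts in WT and 713, 748, 778 and 715 in *Hint1*-/-, which is 32.1% of the WT level. The direction follows the labels, but *Hint1* RNA remained in all 4 *Hint1*-/- samples, counts per gene do not show which exons it came from, and the cause was not tested. Here and below, rose and fell mean an adjusted p under 0.05, as explained with the first comparison. Of all genes tested, 11.2% rose and 10.2% fell. The marker genes for smooth muscle were present, with a summed level of 1374 to 1490 counts per 1000000 (CPM) in WT and 1137 to 1228 CPM in *Hint1*-/-, and 5 of 8 fell while 1 rose. *Acta2* (826 CPM in WT) and *Tagln* (402 CPM) had the highest levels in that sum. Those that fell by more than 1.5-fold were *Myh11* (to 34.3% of WT), *Cnn1* (45.9%) and *Des* (65.2%). *Smtn* rose, and *Tagln* and *Mylk* were not called. Of 12 macrophage markers, all with counts in some sample, 10 were tested, 7 fell and 1, *C1qc*, rose. Summed, the 12 gave 2303 to 2660 CPM in WT and 1880 to 2002 CPM in *Hint1*-/-, and *Lyz2* alone fell from 1202 to 965 CPM. Of 8 fibroblast markers 3 rose and 3 fell (8402 to 9332 CPM in WT and 8615 to 9267 CPM in *Hint1*-/-), of 6 Schwann cell markers 5 fell (41.3 to 47.7 CPM and 9.13 to 11.6 CPM), and of 8 endothelial markers 6 were tested and none was called (at most 9.75 CPM in any sample, summed over the 8).

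The first comparison asked which of the iron-handling genes differed between *Hint1*-/- and WT cells. The RNAs of 3 uptake genes rose in *Hint1*-/- cells: *Tfrc*, *Slc11a2* and *Slc39a14*. The RNAs of the ferritin light chain gene *Ftl1* and the ferroportin gene *Slc40a1* fell. The other 5 genes, *Steap3*, *Fth1*, *Ncoa4*, *Aco1* and *Ireb2*, were not called. A gene was called where the quasi-likelihood test of edgeR gave it a Benjamini-Hochberg adjusted p, taken over all genes tested, under 0.05. All 10 genes were tested and 5 were called, against 21.5% of all genes tested. The 3 that rose stand beside 11.2% of all genes, and the 2 that fell beside 10.2%. The list was chosen with earlier results of these data known, so these shares describe it and do not test it. None of the 10 passed the limit of a 1.5-fold change in addition, which 2.83% of all genes did (1.34% upward and 1.49% downward). The median log2 fold change was 0.07 over the 10 genes and 0.0003 over all genes tested.

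**Figure D1:**
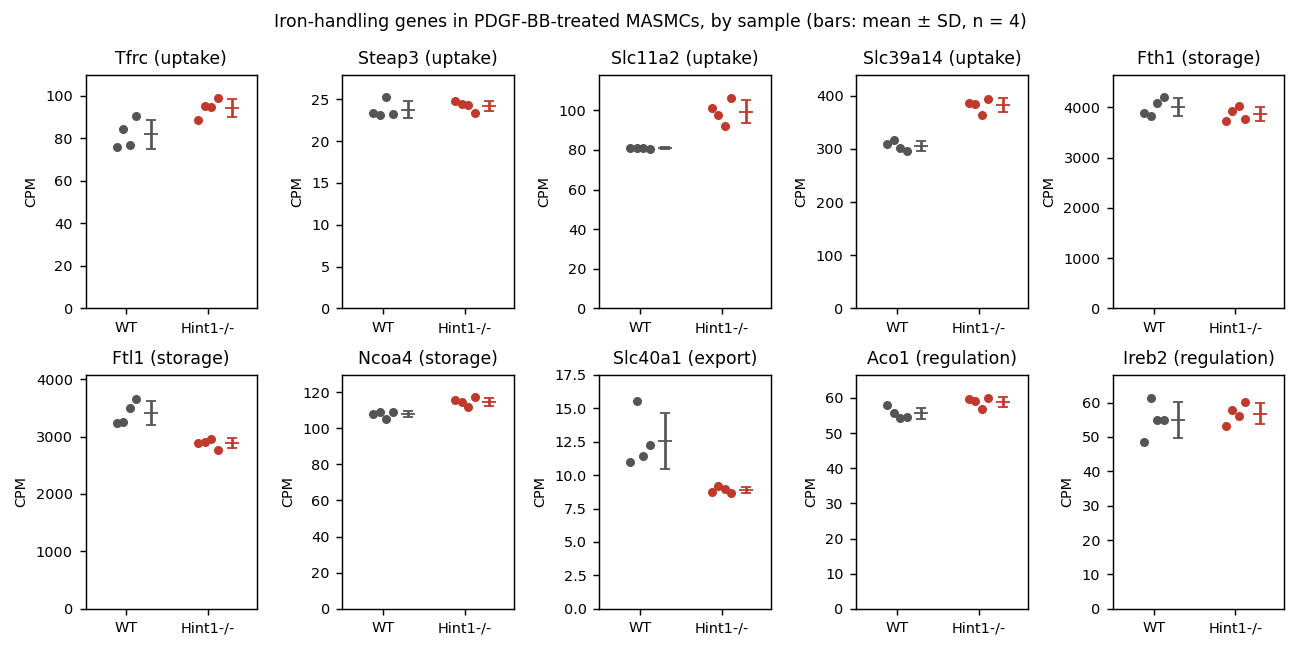
CPM of each of the 10 iron-handling genes in the 4 WT (grey) and 4 *Hint1*-/- (red) samples, on axes that start at 0, with the mean and SD beside the points. The samples of the genotypes do not overlap for Slc11a2, Slc39a14, Ncoa4, Ftl1 and Slc40a1, and they overlap for the other 5 genes, while 23.0% of all genes tested did not overlap.

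*Tfrc* (chr16:32608920-32632794) encodes transferrin receptor 1, the main entry for transferrin-bound iron. It had 1583, 1771, 1612 and 1893 estimated counts in WT and 1838, 1971, 1971 and 2053 in *Hint1*-/-. The highest WT sample, replicate 4 with 90.7 CPM, lay above the lowest *Hint1*-/- sample, replicate 1 with 88.6 CPM, so the groups overlapped. The mean rose from 82.0 ± 6.89 to 94.3 ± 4.24 CPM (SD, n = 4 each), to 115.1% of WT. The log2 fold change was 0.20 (SE 0.050), with an edgeR adjusted p of 0.00641.

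*Slc11a2* (chr15:100387898-100425072) encodes the divalent metal transporter DMT1, which carries ferrous iron out of the endosome and, in some cells, across the plasma membrane. Its estimated counts were 1693, 1703, 1689 and 1677 in WT and 2094, 2021, 1919 and 2202 in *Hint1*-/-. Every *Hint1*-/- sample was above every WT sample, and the WT samples lay close together, with a mean of 80.8 ± 0.397 CPM against 99.2 ± 5.79 CPM in *Hint1*-/- (SD, n = 4 each). The log2 fold change was 0.30 (SE 0.040), and the edgeR adjusted p was 2.14e-05. *Slc11a2* mRNAs end in alternative 3′ exons, with and without an iron-responsive element, and counts per gene cannot separate them.

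*Slc39a14* (chr14:70303469-70351425) encodes ZIP14, a carrier of zinc, manganese and iron that is not bound to transferrin. It had 6463, 6654, 6294 and 6173 estimated counts in WT and 7993, 7966, 7585 and 8185 in *Hint1*-/-. The lowest *Hint1*-/- sample, with 364.5 CPM, was above the highest WT sample, with 316.9 CPM. This gene had the lowest adjusted p of the 10: the mean rose from 305.8 ± 9.47 to 382.2 ± 12.5 CPM (SD, n = 4 each), a log2 fold change of 0.32 (SE 0.034) with an edgeR adjusted p of 1.38e-06.

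*Steap3* (chr1:120190757-120272705) encodes an endosomal reductase that turns ferric into ferrous iron before DMT1 can carry it. It had 486, 485, 529 and 486 estimated counts in WT and 513, 506, 506 and 486 in *Hint1*-/-, and the groups overlapped. It was the uptake gene without a call, with a log2 fold change of 0.03 (95% interval -0.08 to 0.14) and an edgeR adjusted p of 0.745.

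The ferritin chains differed in their result. *Ftl1* (chr7:45457944-45459884) encodes the light chain, which helps to nucleate the iron core. It had 67529, 68409, 73197 and 76460 estimated counts in WT and 60064, 60300, 61724 and 57451 in *Hint1*-/-. Every *Hint1*-/- sample was below every WT sample, and the mean fell from 3414 ± 203 to 2885 ± 85.1 CPM (SD, n = 4 each), to 84.5% of WT. The log2 fold change was -0.24 (SE 0.040), with an edgeR adjusted p of 0.000202. The mouse genome holds many processed copies of the ferritin genes. The files list none under a ferritin name, and copies under other names were not searched for. The deposited *Ftl1* counts had decimals in 8 of 8 samples, so part of its reads was shared out by estimation. Its level is uncertain to that extent.

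*Fth1* (chr19:9980598-9985098) encodes the heavy chain, which oxidises ferrous iron so that it can be stored. It had 81123, 80206, 85409 and 87843 estimated counts in WT and 77440, 81288, 83785 and 78450 in *Hint1*-/-, all deposited as whole numbers. The genotypes overlapped, with means of 3999 ± 177 and 3866 ± 135 CPM (SD, n = 4 each). The log2 fold change was -0.05 (95% interval -0.13 to 0.03), with an edgeR adjusted p of 0.398.

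*Ncoa4* (chr14:32159865-32179855) encodes the receptor that delivers ferritin to the autophagosome, where stored iron is released. It had 2251, 2287, 2203 and 2274 estimated counts in WT and 2396, 2371, 2325 and 2434 in *Hint1*-/-. The groups did not overlap, as for 23.0% of all genes tested, but the difference was small. *Hint1*-/- samples averaged 114.7 ± 2.28 CPM and WT samples 107.7 ± 1.72 CPM (SD, n = 4 each), and the edgeR adjusted p of 0.0505 lay just above the threshold, with a log2 fold change of 0.09 (95% interval 0.02 to 0.16). Without *Hint1*-/- replicate 3 the edgeR adjusted p was 0.0428, and without WT replicate 3 it was 0.152. *Ncoa4* stayed uncalled in 13 of 16 alternative fits.

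*Slc40a1* (chr1:45908068-45926523) encodes ferroportin, and it had the largest change in size of the 10 genes. It had 229, 327, 239 and 256 estimated counts in WT and 181, 190, 186 and 180 in *Hint1*-/-. Every *Hint1*-/- sample was below every WT sample, WT replicate 2 stood above the other WT samples, and the *Hint1*-/- samples lay between 180 and 190. The mean fell from 12.6 ± 2.08 to 8.88 ± 0.232 CPM (SD, n = 4 each), to 70.7% of WT. The log2 fold change was -0.50 (SE 0.095, 95% interval -0.70 to -0.30) with an edgeR adjusted p of 0.000806, and it was -0.38 without WT replicate 2. Macrophages are known for high ferroportin levels. Of 10 tested macrophage markers 7 fell, where 10.2% of all genes tested fell. The median log2 fold change over the 10 was -0.31. The others had higher means in *Hint1*-/-: *C1qc* rose by 1.13 on the log2 scale (edgeR adjusted p = 0.018), and *Mrc1* (0.58) and *C1qb* (0.56) were not called. All of these had low counts, and *Mrc1*, the highest, had a mean of 1.51 CPM in *Hint1*-/-. The part of macrophages in the result was not tested. In bulk samples, fewer cells of a type and less RNA per cell cannot be told apart.

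The genes for the iron regulatory proteins differed little. *Aco1* (chr4:40143081-40198338) encodes iron regulatory protein 1, which is the cytosolic aconitase when it holds an iron-sulfur cluster. It had 1209, 1168, 1136 and 1138 estimated counts in WT and 1236, 1224, 1184 and 1244 in *Hint1*-/-, with a log2 fold change of 0.08 (95% interval 0.01 to 0.16) and an edgeR adjusted p of 0.12. *Ireb2* (chr9:54863789-54912530) encodes iron regulatory protein 2, which is degraded when iron is plentiful. Its estimated counts were 1013, 1286, 1150 and 1148 in WT and 1101, 1198, 1170 and 1248 in *Hint1*-/-, with a log2 fold change of 0.05 (95% interval -0.07 to 0.17) and an edgeR adjusted p of 0.596. For both genes the genotypes overlapped, and for *Ireb2* the lowest and the highest sample were both WT. Without WT replicate 1, the lowest, the log2 fold change of *Ireb2* was -0.0063.

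**Figure D2:**
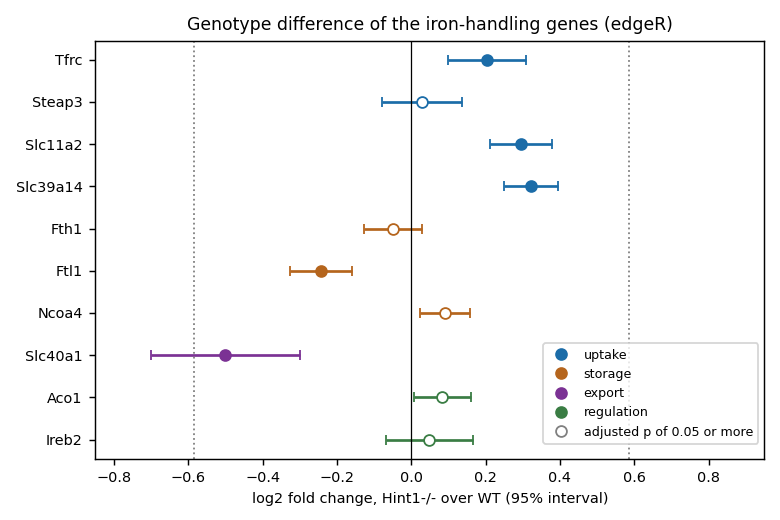
Log2 fold change of *Hint1*-/- over WT for each gene with its 95% interval, coloured by role; filled points have an adjusted p under 0.05, and dotted lines mark a 1.5-fold change either way. Tfrc, Slc11a2 and Slc39a14 lie above 0, Ftl1 and Slc40a1 lie below 0, and all 10 estimates lie inside the dotted lines. The interval of Slc40a1 (-0.70 to -0.30) crosses the lower dotted line.

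Levels of different genes were compared per kilobase of annotated exon. In WT cells the order ran from *Ftl1* (2547 ± 152 CPM per kilobase) and *Fth1* (1153 ± 51.0) through *Slc39a14* (28.98 ± 0.897), *Tfrc* (13.2 ± 1.11), *Slc11a2* (12.7 ± 0.0625), *Aco1* (12.4 ± 0.374), *Ncoa4* (11.5 ± 0.183), *Ireb2* (5.79 ± 0.547) and *Steap3* (4.15 ± 0.181) to *Slc40a1* (1.39 ± 0.231; SD, n = 4 each). The ferritin chains thus stood well above every other gene of the group and ferroportin RNA stood lowest. Among neighbours in that order, the samples of *Tfrc* and *Slc11a2*, and those of *Slc11a2* and *Aco1*, overlapped. In *Hint1*-/- cells 8 of the 10 genes held the same rank. *Slc11a2* (15.6 CPM per kilobase) and *Tfrc* (15.2 CPM per kilobase) changed places, and their samples overlapped there too. With the longest transcript as the length, 7 of the 10 ranks stayed and *Ncoa4* moved to rank 4. In WT, *Ftl1* stood 2.21-fold above *Fth1* per kilobase of exon and 1.82-fold with the longest transcript. The size of this gap thus depends on the length used.

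**Figure D3:**
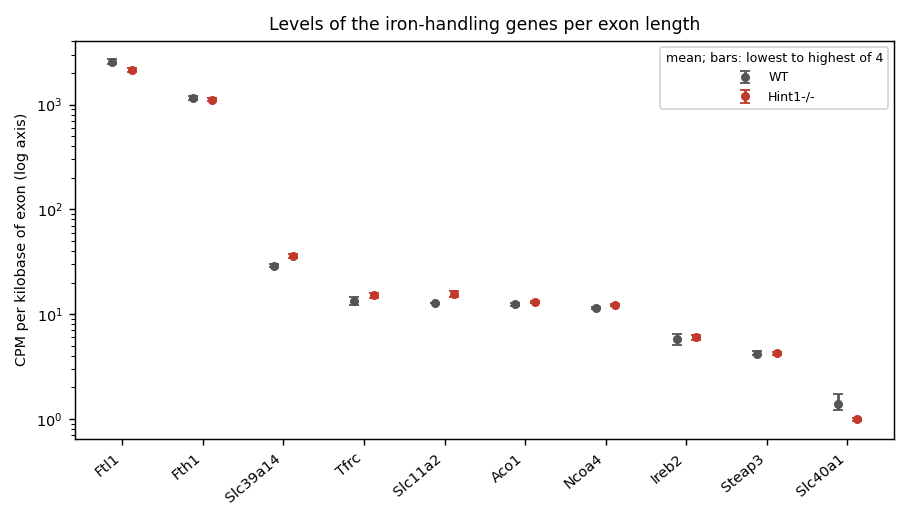
Mean level of each gene in CPM per kilobase of exon, on a log axis, for WT (grey) and *Hint1*-/- (red), with bars from the lowest to the highest of 4 samples. Ftl1 and Fth1 stand above 1000 in both genotypes, Slc39a14 near 30, and Slc40a1 lowest.

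Ratios between genes within a sample do not depend on how the libraries are scaled. Of 3 ratios of estimated counts, tested on the log2 scale by a 2-sided exact permutation test over 70 assignments of the samples, the smallest possible p is 0.0286, and the p-values were not adjusted. The counts were not divided by gene length, so only the difference of a ratio between genotypes is read. Per kilobase of exon *Ftl1* stood above *Fth1*, and *Aco1* above *Ireb2*, in both genotypes. For the ferritin chains this order rests on the division by length. Before it, *Fth1* had the higher mean (3999 against 3414 CPM in WT). The ratio of *Fth1* to *Ftl1* was 1.201, 1.172, 1.167 and 1.149 in WT and 1.289, 1.348, 1.357 and 1.366 in *Hint1*-/-. Every *Hint1*-/- sample had a higher ratio of heavy to light chain counts than every WT sample, with a log2 difference of 0.19 (exact permutation p = 0.0286). The ratio of *Tfrc*, with its hairpins in the 3′ UTR, to *Fth1*, with its hairpin in the 5′ UTR, was 0.0195, 0.0221, 0.0189 and 0.0215 in WT and 0.0237, 0.0243, 0.0235 and 0.0262 in *Hint1*-/-. It was higher in every *Hint1*-/- sample, with a log2 difference of 0.25 (exact permutation p = 0.0286). Taken alone, *Tfrc* had a log2 fold change of 0.20 and *Fth1*, which was not called, of -0.05. Any part of the hairpins in this difference was not tested. The ratio of *Aco1* to *Ireb2* was 1.193, 0.908, 0.988 and 0.992 in WT and 1.123, 1.022, 1.012 and 0.997 in *Hint1*-/-. Here the genotypes overlapped, with a log2 difference of 0.03 (exact permutation p = 0.743).

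Other genes of iron handling were taken from lists ordered by role, also chosen with earlier results of these data known. The shares below describe these lists and do not test them. Of 93 such genes in the files 81 were tested, 10 rose, 11 fell and 60 were not called, so that 25.9% were called against 21.5% of all genes tested. Their median log2 fold change was -0.02. The genes that rose and passed the 1.5-fold limit were 5, and none that fell did.

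Among 13 other uptake genes tested, 6 rose and 1 fell, where 11.2% of all genes tested rose and 10.2% fell. *Lcn2*, encoding the siderophore-binding protein lipocalin 2, rose from 109 ± 4.11 to 434 ± 38.1 CPM (log2 fold change 1.99, edgeR adjusted p = 2.08e-15). *Steap4*, a further metal reductase of the *Steap3* family, rose from 9.07 to 21.4 CPM (1.23 on the log2 scale), and *Trf*, encoding transferrin itself, rose from 6.41 to 12.1 CPM (0.92). The reductase genes *Steap1* and *Steap2* rose by 0.22 and 0.16 on the log2 scale, and *Lrp1*, a receptor for hemopexin-bound heme, by 0.16. The call of *Lrp1* was lost without *Hint1*-/- replicate 1 or 4 (highest edgeR adjusted p 0.0677). *Slc11a1*, encoding the phagosomal transporter NRAMP1 of macrophages, fell by 0.31 on the log2 scale, from 45.6 to 36.7 CPM. The receptor gene *Tfrc* and its ligand gene *Trf* thus both rose, the ligand from a low level.

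Of 6 storage and delivery genes tested (16.7% called, against 21.5% of all genes), none rose and *Pcbp2*, an iron chaperone for ferritin, fell by 0.10 on the log2 scale (edgeR adjusted p = 0.0219), a call lost without WT replicate 3 or *Hint1*-/- replicate 3 or 4 (highest adjusted p 0.101). The log2 fold changes of the related *Pcbp1* and *Pcbp3* were 0.04 and 0.20, and that of the glutaredoxin partner gene *Bola2* was -0.13, with edgeR adjusted p of 0.525, 0.106 and 0.0831. Of 7 genes of export and systemic control 1 rose and 2 fell (42.9% called, against 21.5% of all genes). *Cp*, encoding the ferroxidase ceruloplasmin that works beside ferroportin, rose from 175.6 to 387.3 CPM (log2 fold change 1.14, edgeR adjusted p = 3.79e-14). *Heph*, encoding the related ferroxidase hephaestin, fell by 0.20 on the log2 scale, as did the heme exporter gene *Flvcr1* (0.20), whose call was lost in 6 of the 8 fits without a sample (all but those without WT replicate 1 or *Hint1*-/- replicate 2) and under DESeq2, with a highest adjusted p of 0.0911 over the 16 alternatives. *Bmp2*, encoding a ligand of the hepcidin pathway, and *Flvcr2* had log2 fold changes of 0.34 and 0.37, with edgeR adjusted p of 0.376 and 0.389. The ferroxidase genes thus moved in opposite directions while *Slc40a1* fell.

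Of 11 regulatory genes tested, 3 rose and 1 fell, so that 36.4% were called against 21.5% of all genes. The hypoxia-inducible factor genes *Epas1* and *Hif1a* rose by log2 fold changes of 0.66 and 0.43, and *Zfp36l1*, encoding a protein that promotes mRNA decay, by 0.19. Its relative *Zfp36*, which encodes tristetraprolin, fell by 0.32 on the log2 scale, from 122.4 to 98.3 CPM. *Keap1*, encoding the inhibitor of NRF2, was not called, with a log2 fold change of 0.09 (edgeR adjusted p = 0.0732).

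Of 32 genes of mitochondrial iron and iron-sulfur cluster assembly, none rose and 3 fell, a share called of 9.38% against 21.5% of all genes (10.2% of all genes fell). *Ciao2a*, a cytosolic cluster-targeting gene, fell by 0.18 on the log2 scale, *Nfu1*, a cluster carrier gene, by 0.13 and *Hspa9*, a mitochondrial chaperone gene, by 0.09. The call of *Hspa9* was lost without any 1 of the 8 samples (highest edgeR adjusted p 0.092), and that of *Nfu1* without WT replicate 3 or *Hint1*-/- replicate 3 and under DESeq2 (highest adjusted p 0.0653 over the 16 alternatives). The cluster scaffold gene *Nubp2* had a log2 fold change of -0.12 (edgeR adjusted p = 0.0645). Of 12 genes of heme synthesis and breakdown, none rose and 3 fell, a share called of 25.0%, near the 21.5% of all genes. *Hmox1*, encoding heme oxygenase 1, which frees iron from heme, fell from 376.5 ± 29.1 to 296.9 ± 19.4 CPM (log2 fold change -0.34, edgeR adjusted p = 6.03e-05). The biliverdin reductase genes *Blvra* and *Blvrb* fell by 0.30 and 0.21 on the log2 scale. *Fech*, which encodes the enzyme that inserts iron into heme, had a log2 fold change of -0.09 (edgeR adjusted p = 0.098). *Hmox1* and *Slc11a1* are also known for high levels in macrophages. Most tested macrophage markers fell and others did not, as given above, and the part of those cells in these results was not tested.

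**Figure D4:**
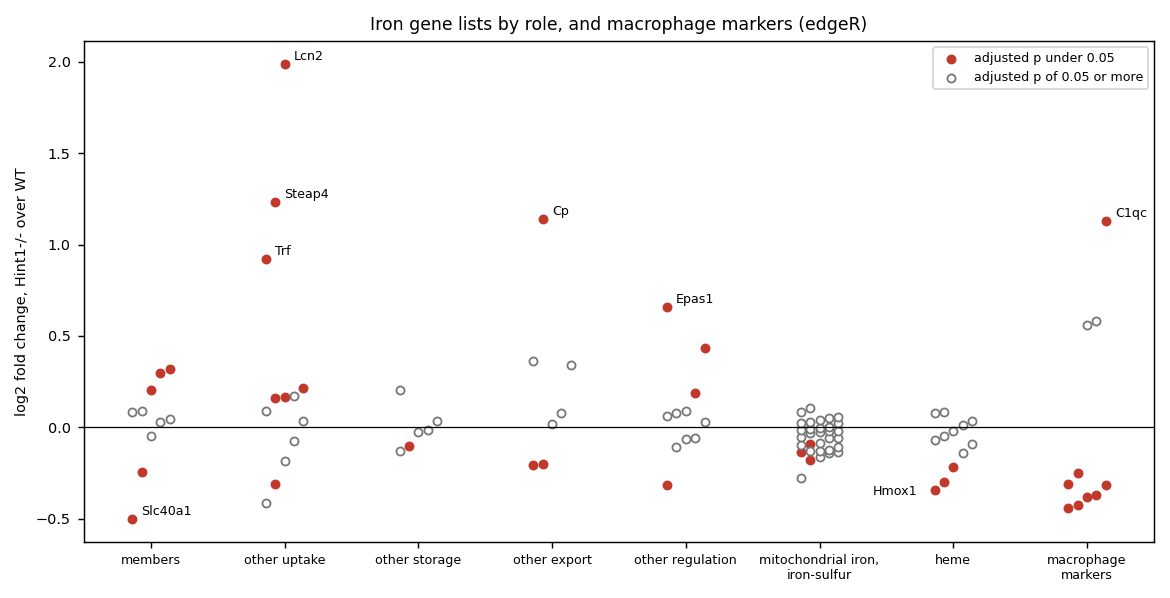
Log2 fold change of *Hint1*-/- over WT for each tested gene of the 10 iron-handling genes, of 6 further role lists and of the macrophage markers; red points have an adjusted p under 0.05. Other uptake spreads furthest upward (Lcn2 at 1.99), the 3 called points of the mitochondrial list and of the heme list lie below 0, and most macrophage markers lie below 0.

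Across the 8 samples, the genes whose log2 CPM followed that of *Slc39a14* most closely among 11848 genes (mean count 50 or more) were *Cyp1b1* (Pearson r = 0.995), *Gxylt2* (r = 0.993) and *Plod2* (r = 0.992). *Cyp1b1* encodes a heme-containing monooxygenase, *Gxylt2* a xylosyltransferase and *Plod2* a collagen lysyl hydroxylase, an enzyme that needs iron. The 8 points form 2 genotype groups, and the 3 genes share with *Slc39a14* a higher level in *Hint1*-/- cells.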

How the data were processed

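RNA-Seq was run on poly(A) RNA with 50-base reads on a BGISEQ-500. The authors deposited estimated counts per gene for each sample. The methods name Hisat2 and mm10, and the submitters' processing notes list Bowtie2, RSEM 1.3.1 and DESeq2 1.4.5; the annotation and any use of strand are not given in the sources used here. Estimated counts were rounded to whole numbers; between 67.3% and 67.8% of values were already whole. No row lacked a gene name. Genes were filtered with filterByExpr, scaled with TMM and tested with edgeR 4.0.16 (limma 3.58.1, R 4.3.3) over all 8 samples, with no covariate. SE is the log2 fold change divided by the square root of F. The code was tested on simulated data. Positions, UTRs and lengths came from GENCODE M21 on GRCm38, the assembly also called mm10. Samples were grouped by GEO's labels. The samples of a genotype differed beyond counting noise (mean chi-square per gene 2.19 to 6.02), so each was counted. Total counts per sample differed little, and the common biological coefficient of variation was 3.79%. Named were the 10 genes, genes of the wider lists past both thresholds (adjusted p under 0.05, fold over 1.5), up to 4 further genes per role list by adjusted p, and the 3 genes most like the member of lowest p. Members and lists were chosen with earlier results of these data known. Alternatives changed the scaling, the filter, the tool (DESeq2 1.42.0, limma-voom), the block and the samples.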

Additional observations from a re-analysis of the deposited data

Results flagged for a closer look

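Dixon's ratio, the gap from an extreme sample to its neighbour over the range of the group, was above its 95% critical value in 3 of 70 groups of 4 samples examined, and chance flags about 3.5 of 70. For *Steap3* in WT the ratio was 0.905: replicate 3 had 529 estimated counts where the others had 485 to 486. For the ferritin chaperone gene *Pcbp2* in WT it was 0.892, with 7566 counts in replicate 3 against 7152 to 7212. For *Epas1* in WT it was 0.852, with 294 counts in replicate 1 against 255 to 261. The cause was not tested.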

How the results depend on the processing

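The 10 genes were refitted under 16 alternatives. *Tfrc*, *Slc11a2*, *Slc40a1*, *Slc39a14* and *Ftl1* stayed called in the same direction in all 16, and *Fth1*, *Aco1* and *Steap3* stayed uncalled. *Ireb2* turned to a log2 fold change of -0.0063 (edgeR adjusted p = 0.951) without WT replicate 1, and leaving out a sample otherwise gave up to 0.10. *Ncoa4* was called under the replicate block (edgeR adjusted p = 0.0478), under limma-voom (adjusted p = 0.048) and without *Hint1*-/- replicate 3 (edgeR adjusted p = 0.0428), so its place beside the threshold depends on these choices. In the other 13 alternatives *Ncoa4* stayed uncalled, with an edgeR adjusted p of up to 0.152. Per length, 7 of 10 ranks stayed when the longest transcript was the length. Same-numbered samples did not deviate together throughout (correlations -0.0492 to 0.183), so the numbers were not read as pairs. The replicate block gave 6 of the 10 genes in place of 5, 0 past the fold limit as before, 22 genes of the wider lists in place of 21, and 3082 genes overall in place of 2907, or 382 in place of 383 with the fold limit. WT replicates 1, 2 and 4 correlated best with the sample of their own number. Of the named wider genes, *Hspa9* lost its call under 10 alternatives, *Flvcr1* under 7, *Pcbp2* and *Nfu1* under 3 each and *Lrp1* under 2. Leaving out a sample moved the *Aco1* to *Ireb2* log2 difference between -0.0224 and 0.109. An alternative that added ferritin copies to their parent genes was not run, since the files hold 0 genes named as ferritin copies. Copies under other names were not searched for. The low counts of *Slc40a1* limit its precision more than those of the other genes.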

Other observations

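Some genes of the wider iron lists had too few counts to be tested, and a pair of them was singled out after their values were seen. *Hephl1*, encoding a ferroxidase related to hephaestin and ceruloplasmin, had 35 estimated counts over the *Hint1*-/- samples and 2 over the WT samples, a ratio of 17.5 (exact 95% interval 4.49 to 150.0, for counting error only). *Tfr2*, encoding transferrin receptor 2, had 32 and 13 estimated counts, a ratio of 2.46 (exact 95% interval 1.25 to 5.11).

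The deposited *Ncoa4* counts had decimals in 4 samples, the 4 WT samples, and were whole in the 4 *Hint1*-/- samples. Those of *Slc11a2*, *Slc39a14*, *Ftl1* and *Aco1* had decimals in 8 of 8 samples. Decimals mark reads that the authors' estimation shared between features, and the cause of the difference for *Ncoa4* was not tested.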
